A study of Homo sapiens with 12 samples.

Results

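At day 12 of cardiac differentiation, 2 libraries of human embryonic stem cells exposed to 60 µM PFOS were compared with 2 libraries that received DMSO, the solvent control. These 4 libraries were chosen by their labels, out of 12 in the series, and every gene with a value was examined. All 4 came from H9, an established human embryonic stem cell line, whose cells were driven towards heart muscle by a published protocol with modifications. PFOS or DMSO was present from day 0 until collection, so the day 12 cells had been exposed throughout differentiation. The other 8 libraries were DMSO and PFOS at day 8 and 60 µM F-53B at both days, again with 2 libraries a group. The series addressed toxicity to the developing heart, a turn towards epicardial cells and WNT signalling. Labels number the replicates without saying whether each was its own culture. The p-values therefore rest on the spread among these libraries alone, and that spread may be technical.

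PFOS is a perfluoroalkyl sulfonate, a persistent surfactant. Its replacement F-53B, a chlorinated polyfluorinated ether sulfonate, differs from PFOS by an ether oxygen and a chlorine atom. In the heart, cardiomyocytes and the epicardium, the cell layer that covers the organ, arise from related mesodermal progenitors. Cardiomyocytes build sarcomeres and secrete natriuretic peptides, whereas epicardial cells express WT1, TBX18 and TCF21 and can give rise to fibroblasts and smooth muscle. WNT signals promote early mesoderm and must then fall for heart muscle to form, and secreted antagonists such as the SFRP proteins bind WNT ligands outside the cell.

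Expression is given as FPKM, fragments per kilobase of transcript, scaled by the fragments mapped in the library. The 4 libraries summed to between 421676 and 439918 FPKM over all genes, and between 13159 and 13292 genes reached 1 FPKM in each. Between replicates, 15 of 14080 genes tested differed by over 2-fold in FPKM + 1 in DMSO and 26 in PFOS, against 134 in F-53B at day 12. The added 1 FPKM leaves out some genes with low values whose FPKM differed by more than 2-fold. Cardiomyocyte markers were high in all 4 libraries. Markers of other cells were present at lower levels, among them fetal liver genes such as AFP, and the neural gene SOX1 and the erythroid gene HBZ were at or near 0. In such bulk samples, fewer cells of a type and less RNA per cell cannot be told apart.

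Changes were estimated on log2(FPKM + 1), which understates the change of genes with low values, with limma and Benjamini-Hochberg adjustment over all genes tested. PFOS differed from DMSO at an adjusted p below 0.05 for 1730 of 14080 genes, 12.3% of those tested, with 939 higher (6.67%) and 791 lower (5.62%). Of these, 129 rose and 86 fell by at least 1 on this log2 scale, a 2-fold change of FPKM + 1. With 0.1 added in place of 1, 291 rose and 154 fell by as much. Folds given for single genes are ratios of mean FPKM. The median change of all genes was 0.02. The 2 PFOS libraries both lay above the 2 DMSO libraries for 30.4% of the genes tested and below them for 26.4%, so 56.8% did not overlap, and separation of the groups alone is common here. The direction of small changes depended on the scaling: with libraries scaled to equal totals, 683 genes were higher and 1003 lower. Without DMSO replicate 1, DMSO replicate 2 or PFOS replicate 1 the counts were 657, 583 and 810 genes, and without PFOS replicate 2 the count was 2024. For gene lists, left-out counts below are in that order: without DMSO replicate 1, DMSO replicate 2, PFOS replicate 1 and PFOS replicate 2.

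**Figure D1:**
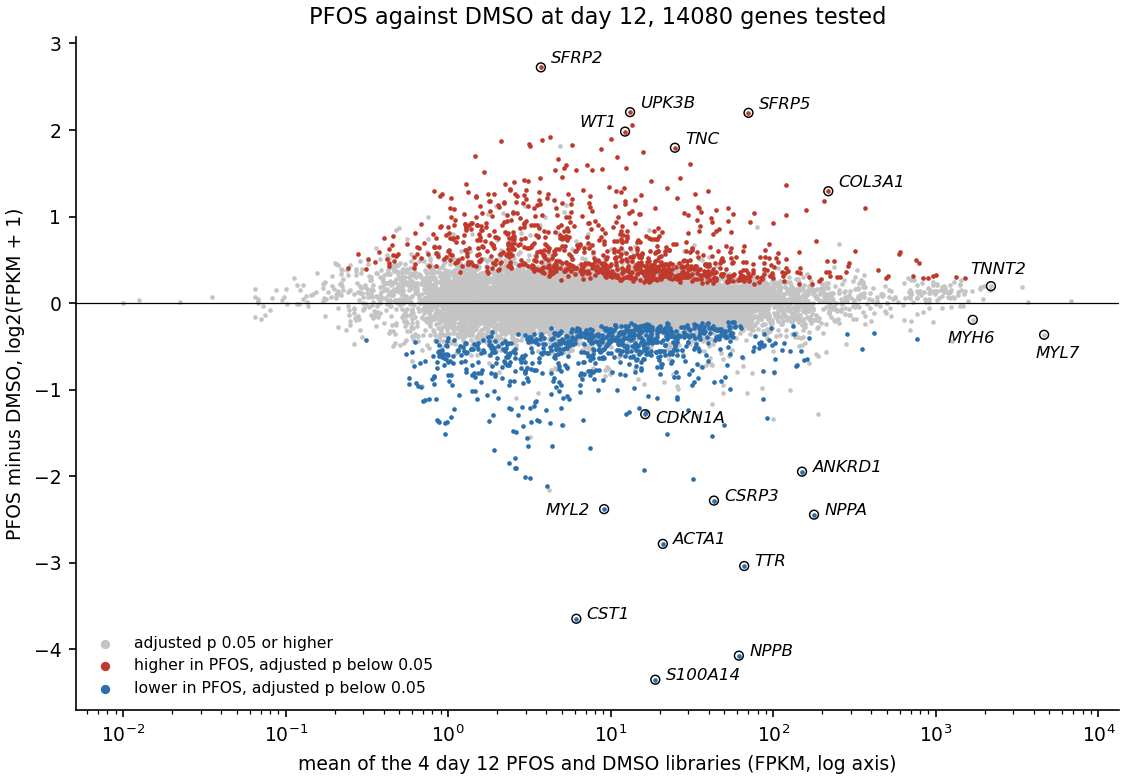
Change from DMSO to PFOS at day 12 on the log2(FPKM + 1) scale (vertical axis) against the mean of the 4 libraries in FPKM (horizontal, log axis), 1 point a gene. Red and blue points passed the test, with 939 higher and 791 lower in PFOS; falls reached -4.35 (S100A14) and rises 2.72 (SFRP2), while TNNT2, MYH6 and MYL7 did not pass the test.

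Most epicardial genes were higher with PFOS than with DMSO at day 12. A rise or fall here is this difference between groups and no change over time. Of 20 epicardial markers tested, 15 rose and 1 fell, with a median change of 1.15 against 0.02 over all genes. Among all genes tested 6.67% rose and 5.62% fell, and list counts below are to be read beside these shares. Without DMSO replicate 1, DMSO replicate 2, PFOS replicate 1 and PFOS replicate 2, the number that rose was 9, 13, 10 and 14. WT1, a zinc finger transcription factor of the epicardium, measured 4.06 and 4.65 FPKM in DMSO and 19.4 and 20.8 FPKM in PFOS. Both PFOS libraries lay far above both DMSO libraries, a 4.62-fold difference in the means with a log2 change of 1.98 (SE 0.16, adjusted p = 6.43e-05, limma). TBX18, a T-box factor of epicardium and its progenitors, measured 13.7 and 15.5 FPKM in DMSO against 43.0 and 50.4 FPKM in PFOS. TCF21, a factor of epicardial cells that become fibroblasts, measured 12.1 and 12.4 FPKM in DMSO against 29.04 and 35.6 FPKM in PFOS. Neither gene overlapped between groups, and their log2 changes were 1.61 (SE 0.25, adjusted p = 0.00467) and 1.33 (SE 0.15, adjusted p = 0.000382).

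UPK3B, a uroplakin of the mesothelial surface, rose 5.55-fold, from 4.11 and 3.92 FPKM to 24.7 and 19.9 FPKM (log2 change 2.21, SE 0.26, adjusted p = 0.00135). A second annotated copy of this gene may share its reads, so its level is uncertain. BNC1, a basonuclin of mesothelial cells, rose from 6.51 and 6.83 FPKM to 25.5 and 24.1 FPKM. ALDH1A2, which makes retinoic acid in the epicardium, was low in DMSO at 0.57 and 0.67 FPKM and reached 3.07 and 2.71 FPKM in PFOS. Its log2 change of 1.26 (SE 0.18, adjusted p = 0.00112) was smaller than that of WT1, although its means differed 4.66-fold. TNNT1, the slow skeletal troponin T, stood on the epicardial list and rose 2.54-fold. PODXL, a sialomucin of mesothelial cells, rose 2.18-fold with an adjusted p of 0.00546, or 0.0607 without PFOS replicate 1. The single member that fell was ALDH1A1, another retinaldehyde dehydrogenase, at 13.5 and 10.3 FPKM in DMSO and 2.72 and 3.34 FPKM in PFOS (adjusted p = 0.00259).

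**Figure D2:**
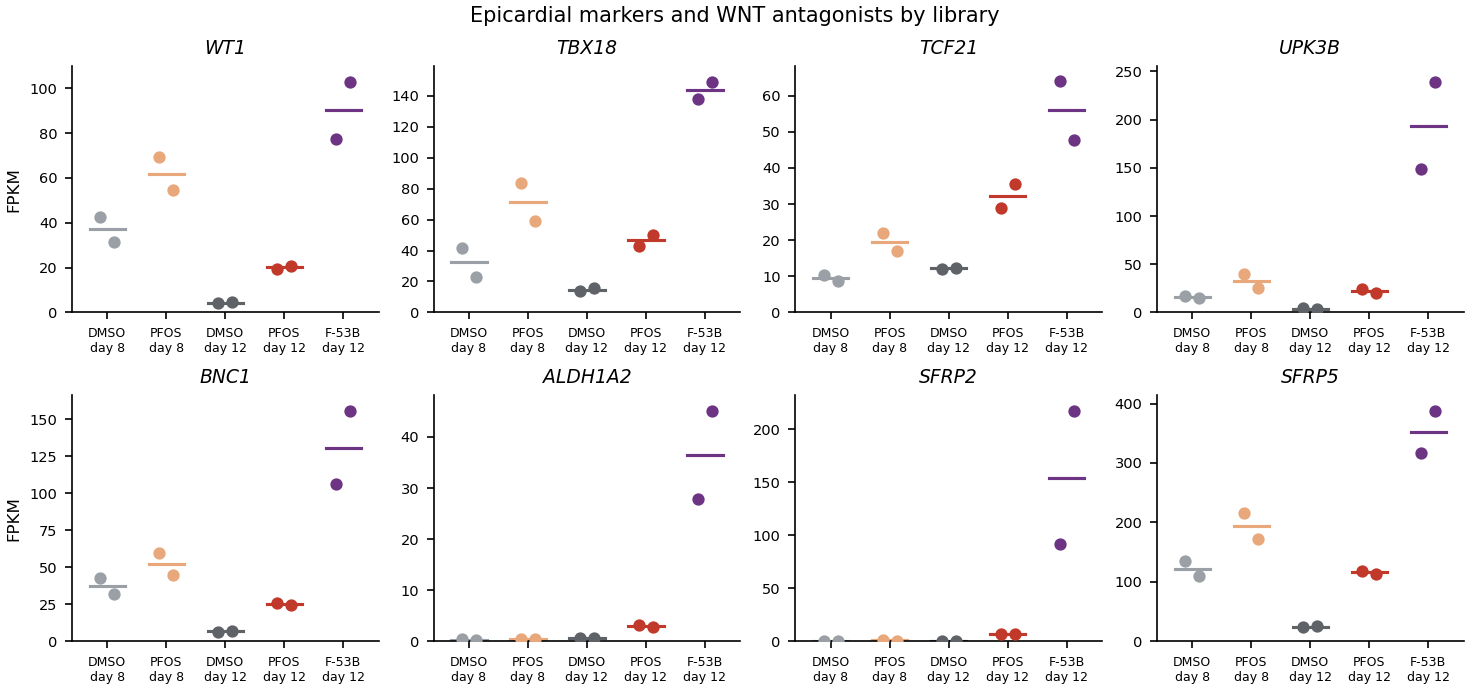
FPKM of 6 epicardial markers and 2 secreted WNT antagonists (vertical axes, from 0) in DMSO and PFOS at both days and F-53B at day 12; points are libraries and bars are group means. At day 12 the PFOS libraries lie above DMSO and below F-53B for all 8 genes, as for WT1 with 19.4 and 20.8 FPKM in PFOS against 4.06 and 4.65 FPKM in DMSO.

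Some WNT antagonists rose, and 1 of the WNT target genes passed the test. Of 13 antagonists tested, 4 rose and none fell, with left-out counts of 3, 3, 3 and 4. SFRP2, which binds WNT ligands, was 0.12 and 0.37 FPKM in DMSO and 7.19 and 7.18 FPKM in PFOS, the largest rise among the named genes (log2 change 2.72, SE 0.36, adjusted p = 0.00214). SFRP5, its relative, went from 23.4 and 25.7 FPKM to 119 and 114 FPKM, a 4.73-fold rise (log2 change 2.20, SE 0.13, adjusted p = 6.31e-06). Lack of overlap was a condition for naming the largest rises, SFRP2 and SFRP5 among them. Replicates of PFOS differed little for both genes. SFRP1 rose 1.54-fold, from 69.5 and 70.3 FPKM to 104 and 112 FPKM (adjusted p = 0.00137). KREMEN2, a receptor for DKK antagonists, rose 2.63-fold with an adjusted p of 0.0106, which was 0.0532, 0.0922 and 0.0992 without DMSO replicate 1, DMSO replicate 2 and PFOS replicate 1.

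Among 15 WNT target genes tested, 1 fell, none rose and the median change was -0.09. Over all genes tested, 5.62% fell and 6.67% rose. Both PFOS libraries lay below both DMSO libraries for 7 of the 15 targets and above them for none, against 26.4% and 30.4% of all genes. The target that fell was TNFRSF19, a receptor of the tumour necrosis factor family. It measured 72.2 and 72.0 FPKM in DMSO and 36.7 and 34.7 FPKM in PFOS (log2 change -0.99, SE 0.09, adjusted p = 6.43e-05). AXIN2, a feedback inhibitor and the most used readout of canonical WNT signalling, measured 6.54 and 6.06 FPKM in DMSO and 5.60 and 5.48 FPKM in PFOS. Its change of -0.16 (95% interval -0.36 to 0.05) fell short of significance, at an adjusted p of 0.301. LEF1, a transcription factor that acts with beta-catenin, measured 23.3 and 22.0 FPKM in DMSO and 22.4 and 27.7 FPKM in PFOS, and the groups overlapped (adjusted p = 0.596).

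Of 22 WNT ligands and receptors tested, 4 rose and 2 fell. Left-out counts were 1, 1, 3 and 1 for rises and 1, 1, 1 and 2 for falls. FZD1, a WNT receptor, rose from 8.54 and 7.81 FPKM to 16.8 and 18.9 FPKM (log2 change 1.04, SE 0.14, adjusted p = 0.000722). FZD5, another receptor of the family, fell from 3.37 and 2.90 FPKM to 0.78 and 1.09 FPKM (log2 change -1.10, SE 0.14, adjusted p = 0.000617). These receptors moved in opposite directions, each without overlap between groups.

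Fibroblast and extracellular matrix genes were mostly higher. Of 24 tested, 14 rose and 1 fell, with a median change of 0.71. The number that rose was 12, 10, 11 and 12 without DMSO replicate 1, DMSO replicate 2, PFOS replicate 1 and PFOS replicate 2. COL3A1, a fibrillar collagen, measured 122 and 130 FPKM in DMSO and 326 and 294 FPKM in PFOS (log2 change 1.29, SE 0.11, adjusted p = 5.93e-05). COL1A1, the main chain of type I collagen, went from 127 and 124 FPKM to 322 and 250 FPKM (adjusted p = 0.00118). TNC, a matrix glycoprotein of remodelling tissue, rose 3.70-fold, from 10.7 and 10.4 FPKM to 39.5 and 38.6 FPKM (adjusted p = 4.98e-06).

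PDGFRB, a growth factor receptor of mural cells and fibroblasts, rose from 9.13 and 9.66 FPKM to 19.2 and 18.4 FPKM, whereas PDGFRA, its fibroblast paralogue, was 23.6 and 25.0 FPKM in DMSO and 24.7 and 27.8 FPKM in PFOS. PDGFRB passed the test (adjusted p = 6.43e-05) and PDGFRA, whose groups overlapped, did not (adjusted p = 0.406). FN1, fibronectin, was the member that fell, from 421 and 410 FPKM to 281 and 293 FPKM (log2 change -0.53, SE 0.09, adjusted p = 0.00395). SMOC2, a matricellular calcium-binding protein, and NTN1, the guidance cue netrin 1, were among the 15 largest rises, at 4.82-fold and 6.16-fold. Of 15 smooth muscle markers tested, 1 rose and 2 fell, with left-out counts of 1, 0, 1 and 1 for rises and 1, 1, 1 and 2 for falls.

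Sarcomere genes mostly had lower estimates in PFOS. Of 27 tested, 2 fell and none rose, against 5.62% of all genes tested that fell and 6.67% that rose. The median change was -0.37, and 20 of the 27 estimates lay below 0, against 6593 of 14080 over all genes. Both PFOS libraries lay below both DMSO libraries for 18 of the 27 and above them for 5, against 26.4% and 30.4% of all genes. TNNT2, cardiac troponin T, measured 2028 and 2041 FPKM in DMSO and 2483 and 2184 FPKM in PFOS, so both PFOS libraries were slightly higher. MYH6, the atrial myosin heavy chain, measured 1795 and 1784 FPKM in DMSO and 1857 and 1319 FPKM in PFOS, and the groups overlapped. MYL7, the atrial regulatory light chain, measured 5259 and 5192 FPKM in DMSO and 3996 and 4107 FPKM in PFOS. None of the 3 passed the test, with adjusted p of 0.774, 0.859 and 0.567.

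The fit estimates 1 spread per gene over all 12 libraries, among them the F-53B libraries, which differed from each other. For TNNT2 the 95% interval of the log2 change ran from -0.65 to 1.04. Left-out counts of falls were 1, 1, 1 and 2. With the spread taken from the 4 libraries alone, 14 of the 27 sarcomere genes fell, and without the 2 day 12 F-53B libraries 7 fell. ACTN2, the sarcomeric alpha-actinin, measured 214 and 226 FPKM in DMSO and 143 and 149 FPKM in PFOS. Its adjusted p was 0.359, against 0.00167 with the spread of the 4 libraries alone and 0.0435 without the F-53B libraries. MYL7 passed only with the spread of the 4 libraries, at 0.00355.

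MYL2, the ventricular regulatory light chain, fell 6.84-fold, from 14.1 and 17.7 FPKM to 1.51 and 3.13 FPKM (log2 change -2.38, SE 0.21, adjusted p = 6.43e-05). CSRP3, a Z-disc protein, measured 66.2 and 78.1 FPKM in DMSO and 12.3 and 15.8 FPKM in PFOS (log2 change -2.28, SE 0.47, adjusted p = 0.0223). The CSRP3 call was lost without DMSO replicate 1, DMSO replicate 2 or PFOS replicate 1, at adjusted p of 0.0863, 0.121 and 0.113, and with a pseudocount of 0.1, at 0.0554. MYH7, the slow and ventricular myosin heavy chain, was lower in both PFOS libraries, at 62.7 and 49.1 FPKM against 137 and 148 FPKM, without passing the test (adjusted p = 0.141, or 0.000178 with the spread of the 4 libraries alone and 0.00483 without the F-53B libraries). MYH6 and MYH7 are near-identical neighbours and can exchange reads.

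Several natriuretic peptide and fetal stress genes of the heart fell by large amounts. Of 10 tested, 5 fell and 1 rose. Their median change was -1.07, or -0.16 over all 12 members with no filter on low values, and the number that fell was 3, 2, 2 and 5 without DMSO replicate 1, DMSO replicate 2, PFOS replicate 1 and PFOS replicate 2. NPPB, which encodes the B-type natriuretic peptide, dropped 19.1-fold, from 121 and 113 FPKM in DMSO to 4.75 and 7.46 FPKM in PFOS (log2 change -4.08, SE 0.37, adjusted p = 0.000585). It lies on chromosome 1 (GRCh38, 11857464 to 11858931, minus strand), near NPPA. NPPA, the atrial natriuretic peptide gene, measured 296 and 304 FPKM in DMSO and 41.2 and 71.2 FPKM in PFOS (log2 change -2.45, SE 0.47, adjusted p = 0.0168). The NPPA call was lost without DMSO replicate 1, DMSO replicate 2 or PFOS replicate 1 (adjusted p of 0.0796, 0.0894 and 0.0966), while NPPB passed the test under every alternative run.

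ACTA1, the skeletal actin that the fetal heart expresses, went from 36.6 and 37.6 FPKM to 3.40 and 5.97 FPKM, a 7.93-fold fall (log2 change -2.78, SE 0.32, adjusted p = 0.00092). Actin genes are close copies of each other and can exchange reads, and with a pseudocount of 0.1 its adjusted p was 0.0501. ANKRD1, a stretch-responsive ankyrin repeat protein, measured 206 and 273 FPKM in DMSO and 54.6 and 67.4 FPKM in PFOS (log2 change -1.95, SE 0.32, adjusted p = 0.0082), and the call was lost without DMSO replicate 2 (0.0599) or PFOS replicate 1 (0.0641). NPR1, the receptor for both peptides, moved the other way, from 6.29 and 6.30 FPKM to 15.5 and 14.3 FPKM (log2 change 1.12, SE 0.12, adjusted p = 0.000188).

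The 250 bases before the gene starts of this group were searched on both strands for CATTCC, the core of the M-CAT element that TEAD factors bind. It occurred in 4 of the 10 members with a RefSeq promoter, ACTA1, ANKRD1, CKB and NPR3, and in 11.9% of all 35116 promoters. The stretch before ACTA1 is shown because the gene had one of the largest falls and holds 2 copies, in capitals, on the plus and minus strands of the gene. A match of these letters is a description and no evidence of binding. The stretch ends at the GENCODE gene start and comes from RefSeq, GRCh38.p14, chr1:229434099-229434344, minus strand:
ACTA1: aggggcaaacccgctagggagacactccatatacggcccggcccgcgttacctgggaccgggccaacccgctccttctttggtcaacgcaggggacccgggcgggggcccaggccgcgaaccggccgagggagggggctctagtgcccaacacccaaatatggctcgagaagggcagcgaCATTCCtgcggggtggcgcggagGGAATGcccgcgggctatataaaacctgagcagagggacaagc

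Few cardiac transcription factors passed the test, and those that did moved both ways. Of 23 tested, 3 rose and 3 fell, against 6.67% and 5.62% of all genes tested, with a median change of -0.03. Left-out counts of falls were 0, 1, 1 and 2, and with the spread of the 4 libraries alone 6 rose and 7 fell. NKX2-5, the early cardiac homeobox factor, measured 149 and 132 FPKM in DMSO and 125 and 117 FPKM in PFOS (adjusted p = 0.845). TBX5 and HAND2, which specify heart field and chambers, rose slightly: TBX5 from 28.0 and 28.2 FPKM to 37.2 and 39.2 FPKM, and HAND2 from 74.9 and 75.6 FPKM to 99.2 and 98.5 FPKM. Both changes exceeded the small spread between replicates, at log2 changes of 0.43 (SE 0.07, adjusted p = 0.00199) and 0.39 (SE 0.06, adjusted p = 0.00257). NR2F2, an orphan receptor of atrial cells, rose 2.83-fold, from 2.57 and 2.12 FPKM to 7.04 and 6.24 FPKM (adjusted p = 0.00087). TBX3, a factor of the conduction system, fell 2.87-fold with an adjusted p of 0.00467, or 0.0521 without DMSO replicate 1.

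Of 23 calcium handling and ion channel genes tested, 2 rose and 4 fell, with a median change of -0.25. Left-out counts were 2, 1, 1 and 2 for rises and 1, 1, 1 and 3 for falls. KCNJ3, a potassium channel of atrial and pacemaker cells, rose from 0.61 and 0.69 FPKM to 2.16 and 2.44 FPKM (adjusted p = 0.00179). ATP2A2, the calcium pump of the sarcoplasmic reticulum, fell 1.47-fold, from 176 and 175 FPKM to 111 and 129 FPKM. Its adjusted p of 0.0124 became 0.0815, 0.084 and 0.102 without DMSO replicate 1, DMSO replicate 2 and PFOS replicate 1. Among 11 atrial markers 3 rose and 1 fell, and among 9 ventricular markers none rose and 3 fell. The atrial fall was lost without DMSO replicate 1, DMSO replicate 2 or PFOS replicate 1, and ventricular falls numbered 2 whichever library was left out. LBH, a transcriptional cofactor on the ventricular list, went from 124 and 115 FPKM to 81.1 and 91.6 FPKM (adjusted p = 0.0028).

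Some endoderm and liver genes fell after PFOS. Of 20 tested, 9 fell and none rose, with a median change of -0.90, and the number that fell was 2, 6, 3 and 10 without DMSO replicate 1, DMSO replicate 2, PFOS replicate 1 and PFOS replicate 2. The whole list summed to 0.197% and 0.140% of all FPKM in the DMSO libraries and 0.0608% and 0.0832% in the PFOS libraries. TTR, the plasma carrier of thyroxine and retinol, measured 147 and 90.0 FPKM in DMSO and 9.56 and 17.9 FPKM in PFOS (log2 change -3.04, SE 0.60, adjusted p = 0.0186). Its call was lost without DMSO replicate 1, DMSO replicate 2 or PFOS replicate 1 (adjusted p of 0.104, 0.0593 and 0.105). AFP, the fetal serum protein, measured 312 and 222 FPKM in DMSO and 86.2 and 135 FPKM in PFOS, without overlap but short of the threshold (adjusted p = 0.0618, and between 0.00238 and 0.0491 under 6 alternatives).

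ALB, serum albumin, fell 2.46-fold, from 7.01 and 8.67 FPKM to 2.30 and 4.07 FPKM (adjusted p = 0.00407, or 0.0557 without DMSO replicate 2). FOXA2, a pioneer factor of endoderm, fell from 1.41 and 0.89 FPKM to 0.05 and 0.20 FPKM (adjusted p = 0.00952, or 0.0978 and 0.0817 without DMSO replicate 1 and PFOS replicate 1). MIXL1, a homeobox gene of mesendoderm, fell from 4.64 and 4.38 FPKM to 2.14 and 2.30 FPKM (adjusted p = 0.000848).

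Of 15 apolipoprotein and lipid transport genes tested, 3 rose and 3 fell, with a median change of -0.15 and left-out counts of 1, 1, 1 and 3 for falls. APOC1, a small apolipoprotein of liver and macrophages, fell 2.51-fold, from 19.9 and 17.3 FPKM to 5.48 and 9.32 FPKM (log2 change -1.26, SE 0.20, adjusted p = 0.0034), and passed the test under every alternative. APOA4 rose 3.95-fold, from 2.32 and 1.37 FPKM to 5.80 and 8.76 FPKM (log2 change 1.54, SE 0.19, adjusted p = 0.000487). APOC3 rose from 1.57 and 0.49 FPKM to 4.52 and 8.53 FPKM (adjusted p = 0.00908, or 0.0692 without DMSO replicate 2). APOA4 and APOC3 belong to 1 apolipoprotein gene cluster, whose other members are not given here. On the list, 6 of the 15 estimates lay above 0 and 9 below.

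The largest falls included genes of epithelial cells. S100A14, a calcium-binding protein of epithelia, had the largest fall of all genes tested with a pseudocount of 1, from 46.8 and 26.8 FPKM to 0.69 and 0.88 FPKM (log2 change -4.35, SE 0.23, adjusted p = 4.98e-06). It lies on chromosome 1 (GRCh38, 153614255 to 153616986, minus strand). CST1, a secreted cysteine protease inhibitor, was 14.6 and 9.93 FPKM in DMSO and 0.08 and 0 FPKM in PFOS (log2 change -3.65, SE 0.16, adjusted p = 1.03e-06). With a pseudocount of 0.1 CST1 fell further than S100A14, at -6.50 against -5.33. The tight junction genes CLDN7 and CLDN4 followed, CLDN7 from 5.77 and 4.94 FPKM to 0.46 and 0.71 FPKM and CLDN4 from 4.67 and 4.66 FPKM to 0.68 and 0.36 FPKM. Their adjusted p were 0.00186 and 5.07e-05.

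These 4 genes passed the test under every alternative that kept them. Lack of overlap was a condition for naming the largest falls, S100A14, CST1 and CLDN7 among them. It was met by 56.8% of all genes tested, in either direction. On the list of 15 epithelial and mesenchymal transition genes tested, 5 fell and 1 rose, with left-out counts of 3, 3, 3 and 5 for falls. The rise was lost without DMSO replicate 1. The transition list mixes epithelial and mesenchymal genes, and the matrix gene FN1 was among its 5 falls beside CLDN7 and CLDN4. Its count therefore does not stand for epithelial genes alone. F2RL1, a protease-activated receptor, fell 8.72-fold, from 5.72 and 5.71 FPKM to 0.62 and 0.69 FPKM (adjusted p = 4.98e-06). IL32, a cytokine, fell from 7.92 and 6.47 FPKM to 1.06 and 0.72 FPKM (adjusted p = 6.43e-05). TUBB2B, a beta-tubulin of neurons and embryonic tissue, fell 4.30-fold, from 22.5 and 29.2 FPKM to 5.78 and 6.22 FPKM (log2 change -1.93, SE 0.13, adjusted p = 1.10e-05).

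Some stress-responsive genes fell after PFOS. Of 21 genes of the p53 response tested, 5 fell and 1 rose, with a median change of -0.16. Left-out counts of falls were 3, 2, 3 and 6, and the rise was lost whichever library was left out. CDKN1A, the cell cycle inhibitor p21, fell 2.60-fold, from 24.3 and 22.8 FPKM to 9.15 and 8.97 FPKM (log2 change -1.28, SE 0.13, adjusted p = 0.000154). GDF15, a circulating stress cytokine, fell 5.33-fold, from 5.58 and 4.87 FPKM to 1 and 0.96 FPKM (adjusted p = 1.65e-05). ATF3, a stress-induced transcription factor, fell from 13.5 and 16.4 FPKM to 7.14 and 6.69 FPKM (adjusted p = 8.54e-05). The groups did not overlap for these 3 genes.

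NR4A1, an orphan receptor induced within minutes of stimulation, fell from 6.41 and 5.88 FPKM to 2.81 and 2.14 FPKM (adjusted p = 0.000346), 1 of 3 immediate early genes that fell among 13 tested, with none that rose and left-out counts of 3, 2, 3 and 4. Of 28 genes of the unfolded protein and integrated stress response, 2 rose and 5 fell, with left-out counts of 3, 1, 1 and 2 for rises and 4, 1, 4 and 7 for falls. Heat shock genes gave 2 falls among 15 tested, with left-out counts of 1, 0, 0 and 1. Oxidative stress genes gave 1 fall among 24 tested and no rise, with left-out counts of 1, 0, 0 and 2 for falls, and 2 rises without PFOS replicate 2. Of 28 cell cycle genes, 3 fell and none rose, with a median change of -0.11, and left-out counts of 0, 0, 0 and 2.

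Many cholesterol and fatty acid synthesis genes fell by small amounts. Of 32 tested, 16 fell and none rose, against 5.62% of all genes tested that fell and 6.67% that rose. The median change was -0.31, and 27 of the 32 estimates lay below 0, against 6593 of 14080 over all genes. These calls rested on few libraries: 6, 1, 4 and 12 fell without DMSO replicate 1, DMSO replicate 2, PFOS replicate 1 and PFOS replicate 2. SC5D, a late enzyme of the pathway, fell most, from 59.8 and 65.1 FPKM to 28.7 and 37.6 FPKM (log2 change -0.90, SE 0.19, adjusted p = 0.0148). MSMO1, a sterol demethylating oxidase, fell from 64.0 and 64.7 FPKM to 33.9 and 44.1 FPKM (adjusted p = 0.00605).

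The SC5D call was lost without DMSO replicate 1, DMSO replicate 2 or PFOS replicate 1 (adjusted p of 0.0645, 0.108 and 0.112), and that of MSMO1 without DMSO replicate 2 (0.0534) or PFOS replicate 1 (0.0542). SREBF2, the transcription factor that drives this pathway when sterol is low, fell from 95.9 and 97.0 FPKM to 67.2 and 66.6 FPKM (log2 change -0.52, SE 0.10, adjusted p = 0.00501, or 0.0507 without DMSO replicate 2).

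Growth factor pathways changed in part. Of 21 genes of FGF signalling and ERK feedback tested, 3 rose and 7 fell. Left-out counts were 1, 1, 2 and 2 for rises and 1, 4, 3 and 5 for falls. ETV5, an ETS factor that ERK signalling induces, fell 3.01-fold, from 9.89 and 10.4 FPKM to 3.51 and 3.23 FPKM (log2 change -1.35, SE 0.19, adjusted p = 0.00118). Of 16 IGF and PDGF genes tested, 5 rose and 2 fell, and neither fall held whichever library was left out. IGF2, a fetal growth factor, rose 2.14-fold, from 236 and 230 FPKM to 520 and 478 FPKM (adjusted p = 0.00446), and IGFBP5, which binds it, rose 2.60-fold, from 66.3 and 65.9 FPKM to 172 and 171 FPKM (adjusted p = 0.00364). Both rises were without overlap.

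Of 24 BMP genes tested, 1 rose and 4 fell, with left-out counts of 3, 2, 2 and 3 for falls. BMP6, a ligand of the family, fell 9.41-fold, from 3.87 and 3 FPKM to 0.42 and 0.31 FPKM (log2 change -1.69, SE 0.13, adjusted p = 3.33e-05). BMPER, an extracellular modulator of BMP ligands, fell from 33.5 and 30.7 FPKM to 17.1 and 18.9 FPKM (adjusted p = 0.000931). BMP4, a ligand used to induce mesoderm, was the member that rose, by 1.35-fold, with an adjusted p of 0.00978 or 0.12 without DMSO replicate 2. Of 10 HOX genes tested, 4 rose and none fell, all of the HOXB cluster, among them HOXB4 from 3.62 and 2.78 FPKM to 7.83 and 6.90 FPKM and HOXB7 from 0.45 and 0.50 FPKM to 2.95 and 2 FPKM. Their adjusted p were 0.000238 and 0.000512.

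Prostaglandin genes moved both ways. PTGS1, the constitutive cyclooxygenase, rose from 0.27 and 0.40 FPKM to 4.36 and 3.45 FPKM, and PTGIS, prostacyclin synthase, rose from 4.51 and 4.65 FPKM to 10.7 and 10.7 FPKM. SLCO2A1, a prostaglandin transporter, fell, with log2 changes from -2.23 to -1.25 over the alternatives run. Of 11 genes of this list tested, 3 rose and 4 fell, with left-out counts of 2, 2, 2 and 3 for rises and 1, 1, 1 and 1 for falls. The PTGIS change was 1.07 (SE 0.10, adjusted p = 7.86e-05), and the PTGS1 adjusted p of 0.00704 became 0.0598, 0.0520 and 0.0619 without DMSO replicate 1, DMSO replicate 2 and PFOS replicate 1. MT2A, a metallothionein that binds zinc and copper, rose 3.68-fold, from 1.25 and 1.32 FPKM to 5.52 and 3.93 FPKM (adjusted p = 0.00575, or 0.0577 without PFOS replicate 1). Metallothionein genes are close copies that can exchange reads.

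No gene of oxidative phosphorylation passed the test by limma, of 27 tested, with estimates from -0.49 to 0.16 and 2 at an unadjusted p below 0.05. With the spread of the 4 libraries alone, or without PFOS replicate 2, 1 fell. Without the 2 day 12 F-53B libraries 1 oxidative phosphorylation gene fell as well. Of 30 glycolysis and hypoxia genes, 1 fell and none rose. That gene was SLC2A3, a glucose transporter, with an adjusted p of 0.0423, which was 0.0683 with the replicate block and between 0.102 and 0.177 with 1 library left out. With the spread of the 4 libraries alone 2 glycolysis and hypoxia genes rose and 4 fell, and 1 rose without PFOS replicate 2. TXNIP, a glucose-responsive inhibitor of glucose uptake, measured 173 and 159 FPKM in DMSO and 172 and 191 FPKM in PFOS (adjusted p = 0.523). Of 13 endothelial markers 1 fell, a call that held without PFOS replicate 1 and was lost without any other of the 4 libraries. Of 12 pluripotency genes 1 rose, again lost without DMSO replicate 1, DMSO replicate 2 or PFOS replicate 2. Among 8 blood markers 1 fell, with each library left out as well. Of 9 neural and ectoderm genes tested, 3 rose and 1 fell, with left-out counts of 1, 1, 1 and 2 for rises and no fall in any of the 4. SOX3, a transcription factor of neural progenitors, rose 3.65-fold, from 0.88 and 0.86 FPKM to 2.46 and 3.89 FPKM (log2 change 1.14, SE 0.16, adjusted p = 0.00103), and passed the test under every alternative that kept it. MAP2 and DCX, microtubule proteins of neurons, were the other rises, with adjusted p of 0.0137 and 0.0363. The MAP2 call was lost without DMSO replicate 1 (0.0505), DMSO replicate 2 (0.121) or PFOS replicate 1 (0.093), and that of DCX whichever library was left out (between 0.0761 and 0.203). STMN2, a neuronal stathmin and the list's fall, was lower in PFOS at 3.61 and 3.85 FPKM against 5.18 and 6.55 FPKM (adjusted p = 0.0375), with the significance gone when each of the 4 libraries was left out, at adjusted p between 0.0585 and 0.283.

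The effect of PFOS at day 12 was then set against its effect at day 8, as the difference of the 2 log2 changes. PFOS was not tested against DMSO at day 8 alone. For single genes, this difference was not examined under the alternatives. This interaction passed the test for 198 genes, 1.41% of 14080, with 86 more positive (0.611%) and 112 more negative (0.795%) at day 12. The count was 60, 59 and 68 without DMSO replicate 1, DMSO replicate 2 and PFOS replicate 1 of day 12, and 339 without PFOS replicate 2 of day 12. Among day 8 libraries it was 120 and 101 without DMSO replicates 1 and 2, and 122 without PFOS replicate 1.

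CDKN1A showed a clear difference between days. It measured 7.77 and 8.79 FPKM in DMSO and 11.2 and 13.3 FPKM in PFOS at day 8, so PFOS was higher there and lower at day 12, and the effects differed by -1.80 (adjusted p = 0.000863). TNFRSF19 measured 20.5 and 17.8 FPKM in DMSO and 26.1 and 24.4 FPKM in PFOS at day 8, again higher with PFOS, and its effects differed by -1.38 (adjusted p = 0.000428). ATF3 measured 8.81 and 8.73 FPKM in DMSO and 11.6 and 10.8 FPKM in PFOS at day 8, and its effects differed by -1.32 (adjusted p = 0.000863).

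S100A14 and MYL2 were under 1 FPKM in all 4 libraries at day 8, and far higher in DMSO at day 12. S100A14 was 0.40 and 0.91 FPKM in DMSO and 0.11 and 0.40 FPKM in PFOS at day 8, and MYL2 was 0 and 0.07 FPKM in DMSO and 0 and 0.14 FPKM in PFOS. The interaction was -3.96 for S100A14 (adjusted p = 0.000367) and -2.43 for MYL2 (adjusted p = 0.00269). For SFRP5, day 8 values were 135 and 109 FPKM in DMSO and 216 and 172 FPKM in PFOS, a smaller rise than at day 12, with an interaction of 1.53 (adjusted p = 0.00269). WT1 measured 42.5 and 31.6 FPKM in DMSO and 69.2 and 54.7 FPKM in PFOS at day 8, and its effect at day 12 was larger by 1.25 (adjusted p = 0.0293). For both genes the DMSO and the PFOS libraries were lower at day 12 than at day 8. Summed over the epicardial list, PFOS measured 3225 and 2835 FPKM at day 8 and 1681 and 1412 FPKM at day 12. DMSO measured 2661 and 2448 FPKM at day 8 and 1017 and 1028 FPKM at day 12.

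MYH6 did not pass the interaction test. It measured 930 and 1365 FPKM in DMSO and 355 and 563 FPKM in PFOS at day 8, against overlapping groups at day 12, with an interaction adjusted p of 0.520. CDH5, the endothelial cadherin, measured 3.20 and 4.63 FPKM in DMSO and 0.18 and 0.50 FPKM in PFOS at day 8, and 3.10 and 2.82 FPKM against 2.02 and 1.96 FPKM at day 12. Its effects differed by 1.47 (adjusted p = 0.0177).

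PFOS was also compared with F-53B, the chlorinated ether relative, at the same dose and day, 1 pair of compounds with p-values adjusted over all genes. F-53B minus PFOS passed the test for 6742 of 14080 genes (47.9%), 3362 higher (23.9%) and 3380 lower (24%) in F-53B. With only the 4 libraries compared the count was 4896, and leaving out 1 library at a time gave 4984 to 6309 genes. Where DMSO values stand beside both compounds, they are the same 2 libraries.

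For epicardial genes F-53B lay above PFOS. WT1 measured 77.5 and 103 FPKM in F-53B against 19.4 and 20.8 FPKM in PFOS, a log2 difference of 2.096 (95% interval 1.73 to 2.46, adjusted p = 8.79e-06). ALDH1A2 measured 27.8 and 45.0 FPKM in F-53B against 3.07 and 2.71 FPKM in PFOS, a difference of 3.23 (2.84 to 3.62, adjusted p = 2.15e-06). SFRP2 measured 91.6 and 217 FPKM in F-53B against 7.19 and 7.18 FPKM in PFOS, a difference of 4.12 (3.30 to 4.93, adjusted p = 4.26e-05). On the epicardial list 17 of 20 genes were higher in F-53B and 1 was lower, against 23.9% and 24% of all genes tested.

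For cardiomyocyte genes F-53B lay far below PFOS. TNNT2 measured 585 and 260 FPKM in F-53B against 2483 and 2184 FPKM in PFOS, a difference of -2.58 (-3.42 to -1.74, adjusted p = 0.000833). NKX2-5 measured 19.5 and 4.93 FPKM in F-53B against 125 and 117 FPKM in PFOS, a difference of -3.47 (-4.76 to -2.17, adjusted p = 0.00167). Of 27 sarcomere genes 24 were lower in F-53B and 1 was higher, and all 27 oxidative phosphorylation genes tested were lower. Among all genes tested 24% were lower and 23.9% higher. The 2 F-53B libraries differed from each other for these genes, replicate 2 being the lower in TNNT2 and NKX2-5.

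Some other genes that fell from DMSO to PFOS had about the same level with both compounds. F-53B was not tested against DMSO. Over all genes, 7338 of 14080 did not pass the test for F-53B minus PFOS. CDKN1A measured 7.82 and 10.3 FPKM in F-53B against 9.15 and 8.97 FPKM in PFOS, with a log2 difference of -0.01 (95% interval -0.29 to 0.28). F2RL1 measured 0.63 and 0.79 FPKM in F-53B, a difference of 0.05 (-0.21 to 0.31) from PFOS. TUBB2B measured 5.35 and 5.40 FPKM in F-53B, a difference of -0.13 (-0.41 to 0.14). FZD5 and ETV5 overlapped between the compounds and BMP6 did not, and the differences for BMP6, FZD5 and ETV5 were 0.13 (-0.16 to 0.41), 0.00 (-0.31 to 0.32) and 0.08 (-0.33 to 0.50). A p that misses the threshold does not show that the compounds act alike. These intervals bound the difference of log2(FPKM + 1) and not that of FPKM. For genes with low values, here F2RL1, BMP6 and FZD5, this scale understates a difference between the compounds.

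**Figure D3:**
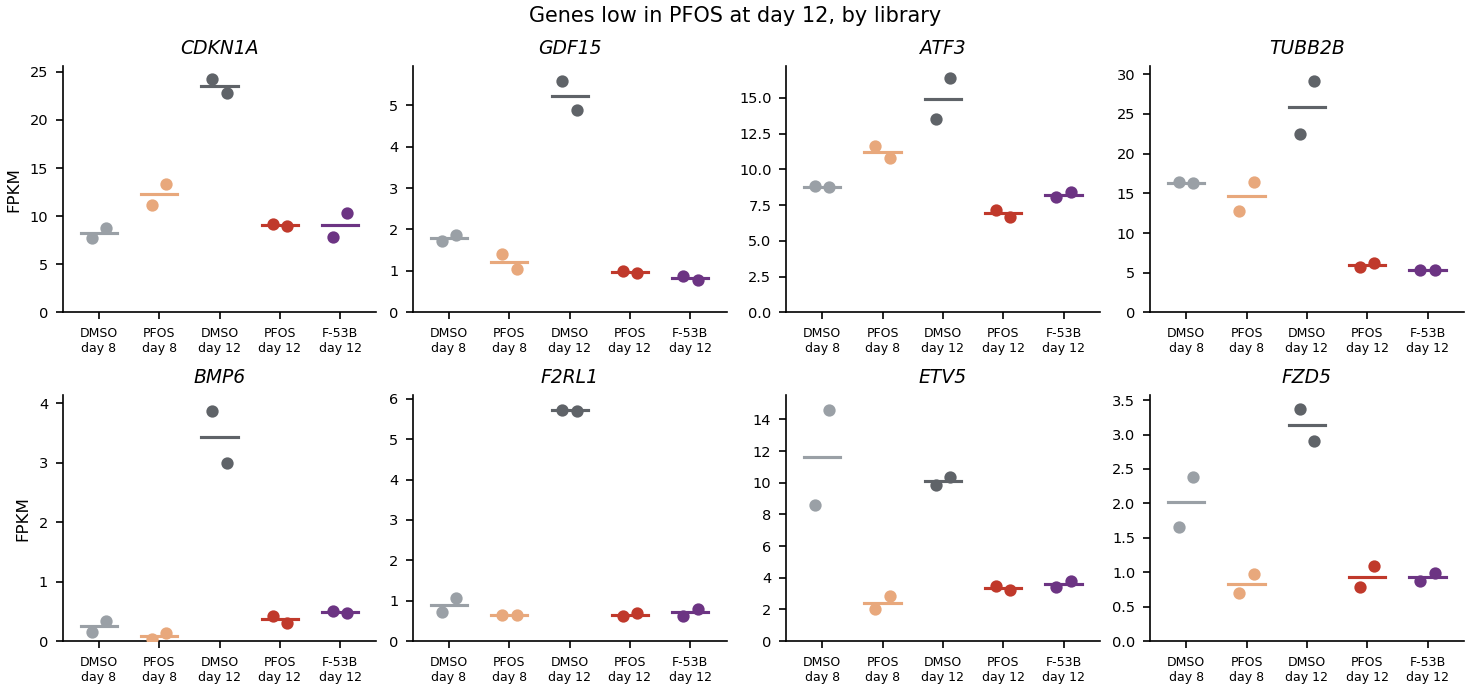
FPKM of 8 genes that fell in PFOS at day 12 (vertical axes, from 0) in DMSO and PFOS at both days and F-53B at day 12; points are libraries and bars are group means. At day 12 the PFOS libraries lie below DMSO, as for CDKN1A with 9.15 and 8.97 FPKM in PFOS and 24.3 and 22.8 FPKM in DMSO. F-53B was not tested against DMSO.

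APOA4 and GJA1 levels lay on opposite sides of DMSO under these compounds. APOA4 measured 0.81 and 0.52 FPKM in F-53B against 5.80 and 8.76 FPKM in PFOS and 2.32 and 1.37 FPKM in DMSO, and F-53B minus PFOS was -2.30 on the log2 scale (95% interval -2.71 to -1.88). GJA1, the gap junction protein connexin 43, measured 106 and 145 FPKM in F-53B against 32.9 and 33.3 FPKM in PFOS and 47.0 and 44.9 FPKM in DMSO. F-53B minus PFOS was 1.87 for GJA1 (1.63 to 2.12, adjusted p = 3.20e-06). Its fall from DMSO to PFOS (adjusted p = 0.022) did not hold when each of the 4 libraries was left out, at adjusted p between 0.0577 and 0.135.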

How the data were processed

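Per the series' design text, RNA of H9 cells was read with BGISEQ-500. The authors deposited FPKM per gene, 1 table a library, per the file headers, with 2 decimals. The submitters' processing notes name HISAT, Bowtie2, RSEM and GRCh38.p11; versions and order of steps are not given in the sources used here. Depth is unknown, so no counting intervals are given.

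Tables list 20042 genes a library, and 1002 of them are without values; 8 to 10 rows without a gene ID were left out. The 14080 genes with at least 1 FPKM in at least 2 of 12 libraries were tested in R 4.3.3 with limma 3.58.1 on log2(FPKM + 1), unscaled, with group means over all 12 libraries (6 residual degrees of freedom), trend and robust empirical Bayes and Benjamini-Hochberg adjustment over all genes, two-sided. Named genes were the 15 largest rises and falls that were significant, reached a group mean of 5 FPKM and did not overlap, up to 3 genes a list with the smallest adjusted p, and fixed markers. Members and lists were chosen with earlier results of these data known, and ACTN2, ATP2A2, COL1A1, FOXA2, IGF2, KREMEN2, PDGFRA, PODXL, PTGS1, SC5D, STMN2, TBX3 and TNNT1 were added after their values were seen. Replicate numbers were not taken as pairs: replicate 1 minus replicate 2 correlated at 0.011 between day 12 DMSO and PFOS, and at -0.378 to 0.186 over all pairs of groups. Gene places are from GENCODE v29 (GRCh38). Alternatives covered the pseudocount, filter, scaling, libraries in the fit, replicate block, empirical Bayes settings and each library left out. A few genes are not reported here.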

Additional observations from a re-analysis of the deposited data

Results flagged for a closer look

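The effect of PFOS differed between day 12 and day 8, by the interaction test, for the genes given here. None of these differences is explained here, and the 2 days share no libraries. Differences are given as the log2 change at day 12 minus the log2 change at day 8. They come from the main fit, and their stability for single genes was not examined.

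More negative at day 12 were S100A14 (-3.96), CST1 (-3.32), MYL2 (-2.43), TXNIP (-2.27), ARRDC4 (-2.23), F2RL1 (-1.83), CDKN1A (-1.80), TUBB2B (-1.77), IL32 (-1.51), BMP6 (-1.50), TNFRSF19 (-1.38), ATF3 (-1.32) and GDF15 (-1.32). More positive at day 12 were PDGFRB (0.57), HOXB4 (0.78), BMP4 (0.82), PTGIS (0.82), FZD1 (0.96), COL3A1 (1.03), WT1 (1.25), APOA4 (1.33), SMOC2 (1.33), TNC (1.42), CDH5 (1.47), SFRP5 (1.53), PLVAP (1.55), TFPI2 (1.63), CD34 (2.26) and NPY (2.58).

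TXNIP measured 26.4 and 28.6 FPKM in DMSO and 168 and 133 FPKM in PFOS at day 8. ARRDC4, an arrestin-like gene regulated with TXNIP, measured 3.50 and 3.30 FPKM in the day 8 controls and 22.4 and 17.5 FPKM in PFOS, while at day 12 it measured 17.6 and 18.7 FPKM against 16.7 and 20.2 FPKM. NPY, a neuropeptide, was lower in PFOS at day 8, at 17.2 and 17.6 FPKM against 34.2 and 69.7 FPKM, and did not pass the test at day 12 (8.97 and 6.41 FPKM against 3.12 and 2.70 FPKM, limma adjusted p = 0.0649). CD34, a marker of endothelial and blood progenitors, measured 4.28 and 6.11 FPKM in DMSO and 0.25 and 0.59 FPKM in PFOS at day 8, and overlapped at day 12.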

How the results depend on the processing

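For PFOS minus DMSO at day 12 the alternatives that kept all 4 libraries called 1394 to 2013 genes, against 1730, and leaving out 1 library gave 583 to 2024. The difference between days gave 143 to 234 genes with all its libraries and 59 to 339 with 1 left out, against 198. F-53B minus PFOS gave 4896 to 7042 genes with all its libraries and 4984 to 6309 with 1 left out, against 6742. With 1 library left out, the lone sample of a group is assumed to vary like the other groups. Removing the 2 day 12 F-53B libraries, which was chosen after seeing the data, gave 2013 genes.

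The replicate block called 1578 genes for PFOS minus DMSO, 156 for the difference between days and 6580 for F-53B minus PFOS. Replicate 1 minus replicate 2 correlated weakly between F-53B and PFOS at day 12, at -0.132. A block with the replicate numbers of PFOS crossed called 6582 genes, close to the 6580 of the plain block. Scaling to equal totals turned the split of F-53B minus PFOS to 4107 higher and 2773 lower, and that of the difference between days to 73 and 161.

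Of 178 genes named by rule or in the text, 134 passed the test, 79 of them under every alternative that tested them, and 54 lost the call with at least 1 library left out. None reversed direction with a call. Depth could not be read from FPKM, so genes near 1 FPKM carry unknown counting error, and 2 libraries a group limit every call.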
